A study of Homo sapiens with 4 samples.

Results

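ATP-binding cassette (ABC) genes encode proteins that use ATP to move drugs, lipids, peptides, bile salts and cofactors across membranes, together with a few soluble members that work on ribosomes. Export pumps such as ABCB1 (P-glycoprotein), ABCG2 (BCRP) and members of the C subfamily lower the amount of drug that a tumor cell retains. ABCC4 is an organic anion and cyclic nucleotide exporter that is abundant in prostate luminal cells. Active promoters and enhancers of such genes lie in open chromatin, which ATAC-seq marks by the DNA that a transposase can reach. The members examined were the 45 genes, among 20037 protein-coding RefSeq genes of GRCh38, whose symbol is ABCA to ABCG followed by a number. They comprised 9 drug efflux pumps, 4 other ABCC genes, 7 sterol and phospholipid exporters, 10 other A subfamily genes, the bile salt exporter ABCB11 with ABCB5, 5 mitochondrial and lysosomal transporters, 4 peroxisomal and cobalamin transporters and 4 soluble proteins.

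LNCaP, a prostate cancer cell line labelled wild type, was compared with its enzalutamide-resistant subline, labelled LNCaP-resistance and treated with the antiandrogen drug enzalutamide. The study's methods derived such sublines from LNCaP by stepwise rises of the drug in charcoal-stripped serum, whereas the labels give ordinary serum for both lines. The study made several sublines and used LN-35 for its chromatin accessibility comparison, but the labels do not say which subline these libraries came from. Each line had 2 libraries, whose batch is labelled repeat1 or repeat2. Nothing states that these came from separate cultures, so the spread between them may be technical. The lists held 117245 and 107344 peak summits for LNCaP and 70866 and 45618 for the resistant libraries, without read counts, so depth is unknown and a missing summit cannot be told apart from a summit below detection. Every value below is a percentile, the percent of summits in the same list that a summit's score equaled or exceeded, given for LNCaP replicates 1 and 2 and then resistant replicates 1 and 2, with 0 for no summit. Summits of all libraries within 500 bases of the next were joined into sites, called LNCaP-only when both LNCaP libraries and no resistant library had a summit there, resistant-only by the reverse, and shared when all 4 had one. A gene was called higher or lower when both resistant percentiles lay above or below both LNCaP percentiles. An exact two-sided permutation test of 2 against 2 libraries cannot go below p = 0.333, so groups are described and not tested. Of 7 luminal prostate markers, 7 had a summit within 3 kb of a gene end in all 4 libraries, while the basal marker KRT5 had none and TP63 had 1, in LNCaP replicate 1, at percentile 0.0230. The lymphocyte gene CD3E and the fibroblast gene COL1A2 had such summits, and PTPRC and DCN had none. The luminal markers moved in both directions, with 3 higher, 3 lower and TMPRSS2 overlapping. Of all genes with such a summit, 23.8% were higher and 28.4% lower. KLK3, the gene of prostate-specific antigen, ranked at 4.79, 3.46, 82.7 and 60.6, at a site near its 3′ end and 4113 to 4175 bases downstream of its start, while the kallikrein gene KLK2 ranked at 87.3, 87.3, 83.2 and 75.3.

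The transcription starts of the multidrug pumps ABCB1 and ABCG2 showed higher-ranking open chromatin in both resistant libraries. ABCB1 lies on chr7:87503017-87713295 (hg38, minus strand) and has 2 starts in the RefSeq table. At the internal start the only summits within 3 kb lay 32, 19, 53 and 102 bases upstream of it. Their percentiles were 53.6 and 47.8 in LNCaP and 93.3 and 81.5 in the resistant libraries. The groups did not overlap, and the difference was 36.7 percentile points (pooled SD 6.53, n = 2 per group). The deposited scores of these summits were 12.5, 9.37, 81.2 and 31.4. No library had a summit within 3 kb of the other listed start, at the gene's higher-coordinate end.

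ABCG2 lies on chr4:88090264-88231626 (minus strand), and its most upstream listed start had no summit within 3 kb in any library. The other 4 listed starts lie inside the annotated gene, close to each other. Resistant replicates 1 and 2 had a summit 45 and 8 bases downstream of the outermost of these, at percentiles 79.5 and 74.6. LNCaP replicate 1 had a weak summit at percentile 28.6, placed 634 bases downstream of that start, and LNCaP replicate 2 had none within 3 kb. The resistant libraries were thus both above the LNCaP libraries, by 62.8 points (pooled SD 14.5). The start used here was chosen as the listed one nearest to a resistant summit. Relative to another of the 4 starts, the LNCaP summit was at -17 bases and the resistant summits at -606 and -643 (negative for upstream). The distances thus do not place the resistant summits at a start and the LNCaP summit away from one. The site of the resistant summits, chr4:88158995-88159532, also lies within the predicted gene LOC124900867, 292 bases from its end.

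The promoters below are a selection among the pumps with a summit at a listed start, ABCB1 and ABCG2 with higher ranks in the resistant libraries and ABCC4 and ABCC5 with slightly lower ranks. Other pump starts with a summit, such as those of ABCC10 and ABCC11 and the other internal starts of ABCG2, are not printed. They are RefSeq GRCh38.p14 sequences from 250 bases before to 50 after the start, written 5′ to 3′ on the gene's strand. Capitals mark matches, on either strand, to the GC box letters GGGCGG, those of the CCAAT box, the response element core for antioxidants TGACNNNGC and the E-box letters CACGTG. The windows are chr7:87600835-87601134 for ABCB1, chr4:88159241-88159540 for ABCG2, chr13:95301402-95301701 for ABCC4 and chr3:184017835-184018134 for ABCC5, each on the minus strand.
ABCB1: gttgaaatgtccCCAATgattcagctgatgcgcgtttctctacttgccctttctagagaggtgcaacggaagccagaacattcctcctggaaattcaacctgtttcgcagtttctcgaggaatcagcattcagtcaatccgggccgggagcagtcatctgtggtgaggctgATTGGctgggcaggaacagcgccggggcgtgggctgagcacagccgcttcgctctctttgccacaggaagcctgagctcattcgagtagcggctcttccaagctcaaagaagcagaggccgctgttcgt
ABCG2: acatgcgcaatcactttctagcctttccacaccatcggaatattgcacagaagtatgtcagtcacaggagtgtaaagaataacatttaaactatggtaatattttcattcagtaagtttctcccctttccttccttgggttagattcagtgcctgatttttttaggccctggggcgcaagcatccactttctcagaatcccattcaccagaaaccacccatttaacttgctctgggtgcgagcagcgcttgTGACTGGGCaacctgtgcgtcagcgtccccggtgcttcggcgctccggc
ABCC4: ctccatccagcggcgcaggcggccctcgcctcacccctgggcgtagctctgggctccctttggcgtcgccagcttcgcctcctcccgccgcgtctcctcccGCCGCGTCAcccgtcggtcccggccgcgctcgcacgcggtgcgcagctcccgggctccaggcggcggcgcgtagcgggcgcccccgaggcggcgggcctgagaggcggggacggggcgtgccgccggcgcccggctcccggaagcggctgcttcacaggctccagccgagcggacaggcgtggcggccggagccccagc
ABCC5: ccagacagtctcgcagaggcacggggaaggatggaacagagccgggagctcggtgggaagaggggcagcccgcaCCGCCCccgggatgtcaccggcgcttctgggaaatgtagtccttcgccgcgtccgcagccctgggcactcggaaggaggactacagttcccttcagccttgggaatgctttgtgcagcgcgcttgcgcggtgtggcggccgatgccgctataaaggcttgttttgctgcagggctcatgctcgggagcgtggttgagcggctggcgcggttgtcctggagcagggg

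The ABCB1 window held CCAAT or its complement 238 and 79 bases upstream of the start and no match to the other letters. The ABCG2 window held TGACNNNGC 1 base downstream of the start. In the ABCC4 window the match to TGACNNNGC began 149 bases upstream, and in that of ABCC5 a GGGCGG match began 176 bases upstream. The windows differed widely in composition, with 79.7% G and C in ABCC4, 65.7% in ABCC5, 55.3% in ABCB1 and 48.3% in ABCG2. Promoter entries were found for 35 of the 45 genes, with 53 starts, some of them close enough to share a summit. Among these, 47.2% held the GC box letters, 22.6% the CCAAT box, 22.6% the response element core and 17.0% the E-box, against 56.3%, 34.7%, 13.8% and 8.34% of 22199 promoters of protein-coding genes. Genes without an entry, named only, included ABCA4, ABCA8, ABCB4, ABCB5, ABCC1, ABCC3, ABCC8 and ABCG1.

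**Figure D1:**
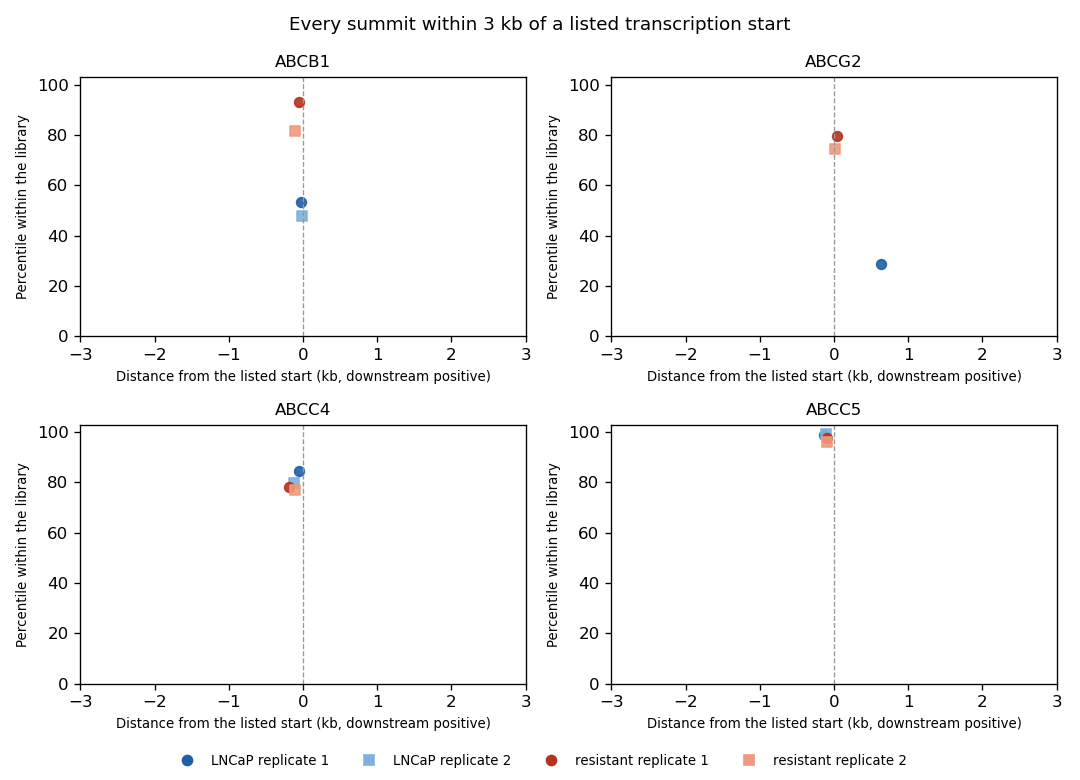
Every summit within 3 kb of a listed start of ABCB1, ABCG2, ABCC4 and ABCC5, by distance from the start in kb (horizontal, downstream positive) and percentile within its library (vertical), with 1 point per summit and colors and shapes for the 4 libraries. At ABCB1 and ABCG2 the resistant points, from 74.6 to 93.3, lie above the LNCaP points, from 28.6 to 53.6, and at ABCC4 and ABCC5 they lie just below them. For each gene the start shown is the listed one nearest to a resistant summit.

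Across listed starts, 42 of the 53 had a summit within 3 kb in at least 1 library. The strongest of these ranked higher in both resistant libraries at 16 starts and lower at 10, while over all genes 26.5% of starts ranked higher and 25.2% lower. The 16 included 4 neighboring starts of ABCG2 that shared their summits, 2 of ABCG4 and 2 of ABCC10, so they do not count as separate observations.

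Gene ends were next compared, taking the strongest summit within 3 kb of either end of a gene, which counts 3′ ends with 5′ ends. A summit was found there for 36 of the 45 members in at least 1 library and for 23 in all 4. The genes without one were ABCA4, ABCA6, ABCA8, ABCA9, ABCB5, ABCB11, ABCC9, ABCG2 and ABCG5. Among the 36 genes, 12 ranked higher in both resistant libraries, 11 ranked lower and 13 overlapped. Of 16896 protein-coding genes with such a summit, 23.8% ranked higher and 28.4% lower, so the lower count was close to the background and the higher count somewhat above it. That excess depended on the setting, since within 1 kb of an end 9 of 32 members ranked higher against 27.0% of all genes, and among summits with a score of at least 10 the count was 5 of 32 against 24.6%, below the background. The median difference was 0.0665 percentile points for ABC genes and -0.442 for all genes. With each list reduced to its 45618 highest-scoring summits, 22 of 32 members ranked higher and 4 lower, and the background moved with them, to 61.6% and 8.7%. ABCB8 and ABCB10 of mitochondria, the peptide transporter ABCB9 of lysosomes, the cobalamin transporter ABCD4, ABCF2, ABCA5, ABCC5 and ABCC11 were at percentile 90 or above in every library.

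**Figure D2:**
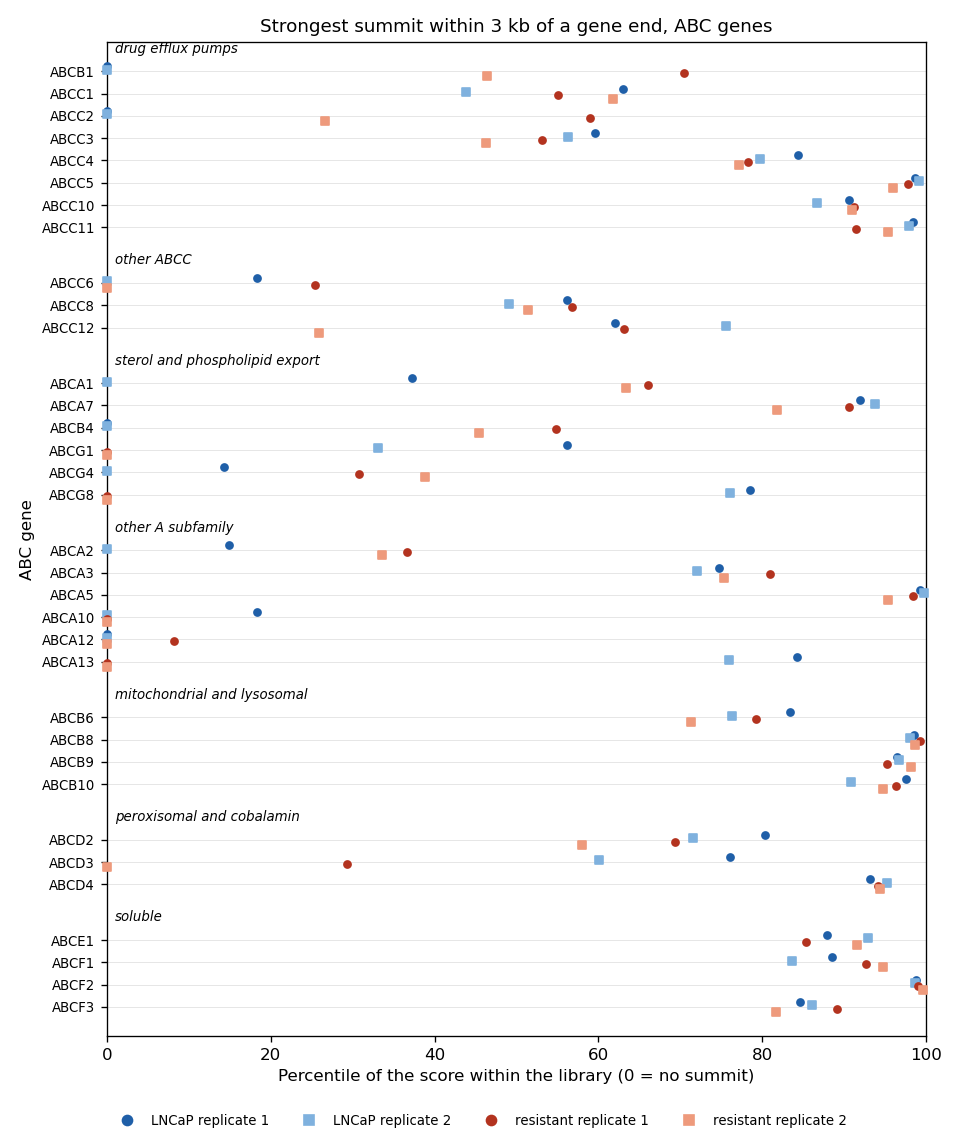
Percentile of the strongest summit within 3 kb of a gene end (horizontal, 0 for no summit) for 34 of the ABC genes that had one (vertical), grouped by role, with 1 point per library. ABCB1, ABCB4 and ABCC2 have both LNCaP points at 0 and both resistant points above 26, and ABCA13, ABCG1 and ABCG8 show the reverse.

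Drug efflux pumps differed among themselves at their ends. Of the 9 pumps, 8 had an end summit, 3 ranked higher (ABCB1, ABCC2 and ABCC10), 4 ranked lower (ABCC3, ABCC4, ABCC5 and ABCC11) and ABCC1 overlapped. ABCB1 had end summits at 70.4 and 46.4 in the resistant libraries and none in LNCaP, at a site 2506 bases inside the lower-coordinate end, which is its 3′ end (chr7:87505047-87506006). ABCC2, a canalicular exporter of conjugated compounds, likewise had none in LNCaP and 59.0 and 26.6 in the resistant libraries, at chr10:99849928-99850485, 2388 bases inside its 3′ end. A presence of this kind, in both resistant and neither LNCaP library, was found for 3 members against 2.12% of all genes. The reverse was found for 3 members against 4.54%. Among summits with a score of at least 10, the groups overlapped at the ends of ABCB1, ABCC2 and ABCC10, with differences of 27.5, 18.8 and 6.37 points. Within 1 kb of an end, or with the 5′ end alone, the groups overlapped for ABCC2 as well, with a difference of 22.3 points.

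The rest of the pumps had end summits in all 4 libraries. ABCC10 ranked at 90.6 and 86.7 in LNCaP and at 91.3 and 90.9 in the resistant libraries, a difference of 2.43 points (pooled SD 1.94). ABCC5, an exporter of cyclic nucleotides, ranked at 98.7, 99.2, 97.9 and 96.0, lower by a margin that kept it among the strongest summits of each list. With equal numbers of summits its groups overlapped, with a difference of -1.02 points. ABCC11, expressed in apocrine glands, ranked at 98.4, 97.9, 91.5 and 95.4 through a summit near its 3′ end, and the groups overlapped with the 5′ end alone, where the difference was 1.98 points, and with equal numbers of summits, where it was -4.39. A further resistant-only site lay close by at chr16:48165945-48166474, with percentiles 75.5 and 53.8, while the LNCaP-only site at its outermost start, with 37.6 and 49.2, also lies in the gene LONP2. ABCC3, an exporter of bile salts and glucuronides, ranked at 59.6, 56.3, 53.2 and 46.3. Its strongest LNCaP site lay 2 bases from an end of ANKRD40, and with only the summits nearest to no other gene the difference changed from -8.23 to 8.35 points and the groups overlapped. In lists reduced to equal length ABCC3 ranked higher, by 36.8 points. ABCC1, a glutathione-linked pump, ranked at 63.0, 43.9, 55.1 and 61.8 through different sites. The shared site 2721 bases outside its lower-coordinate end had 2.27 and 9.30 in LNCaP and 55.1 and 61.8 in the resistant libraries, while the site 1477 bases inside that end was LNCaP-only, with 63.0 and 43.9.

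ABCC4 lies on chr13:95019835-95301451 (minus strand) and had 1 end summit in every library, 49 to 191 bases upstream of its listed start. The percentiles were 84.4 and 79.8 in LNCaP and 78.3 and 77.1 in the resistant libraries. The groups did not overlap, but the difference of -4.40 points (pooled SD 2.37) was small and changed sign when each list was reduced to equal numbers of summits, where it was 15.5 points against a median of 13.2 for all genes. The groups overlapped among summits with a score of at least 10.

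Exporters of sterols and phospholipids differed in both directions. ABCA1, which loads cholesterol onto apolipoproteins, ranked at 37.3 and 0 in LNCaP and at 66.0 and 63.4 in the resistant libraries. The summit of LNCaP replicate 1 lay 121 bases upstream of its start. The strongest resistant summits formed a site that LNCaP lacked, chr9:104926345-104926921, 1484 and 1560 bases downstream. Resistant replicate 1 also had a weaker summit at the start, in the site chr9:104928015-104928526, and resistant replicate 2 had none there. ABCB4, the phosphatidylcholine floppase beside ABCB1, had no end summit in LNCaP and 54.8 and 45.4 in the resistant libraries, at chr7:87475497-87476004, 277 bases inside its end toward ABCB1. ABCG4, a sterol exporter, ranked at 14.3, 0, 30.8 and 38.9 at its start. In the other direction, ABCG1, another sterol exporter, ranked at 56.1 and 33.1 in LNCaP at a site 91 bases outside its lower-coordinate end, and had no end summit in the resistant libraries. ABCG8, which acts with ABCG5 in plant sterol export, had 78.5 and 76.1 in LNCaP near its 3′ end and none in the resistant libraries. ABCA7 ranked at 92.0, 93.7, 90.6 and 81.8. Thus 3 of the 6 exporters with an end summit ranked higher and 3 ranked lower, against 23.8% and 28.4% of all genes. With 6 genes these shares cannot be told apart.

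In the remaining groups the largest differences at ends, those of ABCA13 and ABCD3, were toward lower ranks, and the next largest, that of ABCA2, was toward higher ranks. ABCA13 had 84.2 and 76.0 in LNCaP, 1988 and 2112 bases downstream of its start, and no end summit in the resistant libraries. ABCD3, a transporter of long-chain acyl-CoA into peroxisomes, ranked at 76.1, 60.1, 29.4 and 0. Its listed start lies inside the annotated gene and carried strong summits in all 4 libraries, at 95.3, 94.3, 91.2 and 92.1. ABCD2, a peroxisomal transporter of the same subfamily, ranked at 80.4, 71.5, 69.3 and 58.0. ABCA2 ranked higher, at 14.96, 0, 36.66 and 33.65, a difference of 27.67 points. Its strongest end summits lay near the 3′ end in both replicates 1 and near the start in resistant replicate 2. Another listed start of ABCA2, inside the annotated gene, had stronger summits within 3 kb and went the other way. It ranked lower, at 84.2, 94.0, 76.0 and 42.4, a difference of -29.9 points. Of the soluble proteins, the translation factor ABCF1 ranked at 88.5, 83.6, 92.7 and 94.8 and ABCF2 at 98.8, 98.6, 99.1 and 99.6, both higher, while ABCE1, the ribosome recycling factor, and ABCF3 overlapped.

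Gene bodies, defined as the parts of a gene over 3 kb from either end, gave a different count. Of the 37 members with a body summit, 5 ranked higher in both resistant libraries, 21 ranked lower and 11 overlapped. Over 11226 protein-coding genes with a body summit, 7.27% ranked higher and 63.4% lower, so the direction of the ABC genes was that of the background. With equal numbers of summits, 9 of 31 ranked higher and 12 lower, against 24.2% and 42.4%. The median difference was -10.2 points for ABC genes and -20.4 for all genes. ABCG5 had a body summit in both resistant and neither LNCaP library, which 1.02% of genes had. The reverse, shown by ABCB10, ABCD4, ABCA6 and ABCA5 among others, was found for 5 members, and 17.6% of genes had it.

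**Figure D3:**
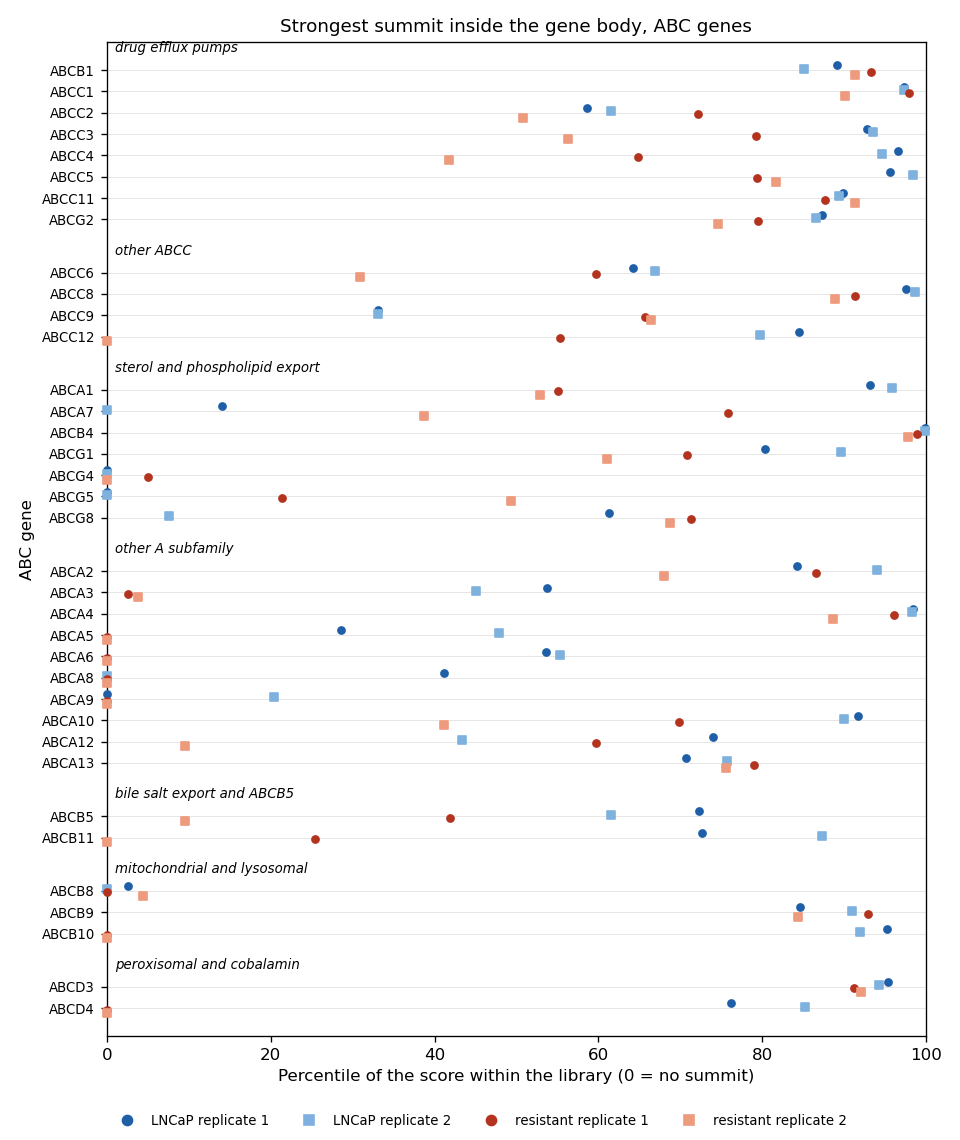
Percentile of the strongest summit inside the gene body (horizontal, 0 for no summit) for 36 of the ABC genes that had one (vertical), grouped by role, with 1 point per library. Resistant points lie left of both LNCaP points in 20 of these genes, with ABCB10 and ABCD4 at 0, and right of them in 5, among them ABCB1, ABCC9 and ABCA7.

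The genes with higher body ranks were ABCB1, ABCC9, ABCG5, ABCG8 and ABCA7. ABCA7, a phospholipid transporter, ranked at 14.0, 0, 75.9 and 38.7. ABCC9, the regulatory subunit of potassium channels in muscle, ranked at 33.2, 33.1, 65.7 and 66.4. None of the ABCC9 body sites was shared or LNCaP-only, so its close LNCaP values came from different sites. ABCG8 ranked at 61.4, 7.62, 71.3 and 68.8, and its partner ABCG5 at 0, 0, 21.4 and 49.3. The ABCB1 body ranked at 89.1, 85.2, 93.3 and 91.4, of which 93.3 was the summit at the internal start described above. The other values came from the strongest LNCaP site of the body, chr7:87628025-87628534. That site lay 120 bases from an end of the gene RUNDC3B and ranked at 89.1, 85.2, 92.0 and 91.4. A resistant-only site at chr7:87574534-87575066 had 70.1 and 45.4, and an LNCaP-only site at chr7:87510522-87511068 had 81.0 and 74.7. From 3 kb outside ABCB4 to 3 kb outside ABCB1 the lists held 14, 10, 10 and 8 summits, which formed 4 shared, 4 LNCaP-only and 3 resistant-only sites.

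Among the genes with lower body ranks, ABCB10, which acts in heme synthesis in mitochondria, ranked at 95.2 and 91.9 in LNCaP and had no body summit in the resistant libraries, while its ends ranked at 97.6, 90.8, 96.4 and 94.8 and overlapped. ABCD4 had 76.2 and 85.2 against none, again with overlapping ends. The bile salt exporter ABCB11 ranked at 72.7, 87.3, 25.5 and 0, and ABCB5 at 72.3, 61.5, 41.9 and 9.58, each with 3 LNCaP-only sites. ABCC12 ranked at 84.5, 79.8, 55.3 and 0, and ABCA6 at 53.6, 55.3, 0 and 0. ABCA1, higher at its 5′ end through a site downstream of its start, ranked lower in its body, at 93.2, 95.8, 55.0 and 52.9. Its end and body thus differed in direction. Among the pumps, ABCC5 ranked at 95.6, 98.4, 79.4 and 81.7, ABCC3 at 92.8, 93.6, 79.2 and 56.3 and ABCG2 at 87.3, 86.6, 79.5 and 74.6. The resistant values of ABCG2 were those of the summits at its internal start, which ranked higher there than in LNCaP. Its LNCaP values came from another site, the LNCaP-only chr4:88216287-88216820. With equal numbers of summits the lower rank of the ABCG2 body was lost, as the groups overlapped and the difference changed from -9.87 to 3.53 points. The bodies of ABCC2 and ABCC11 overlapped between groups but ranked higher with equal numbers of summits, by 49.0 and 11.6 points, and ABCC10 had no body summit.

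ABCC4 had more body summits than any other member, 31 and 32 in LNCaP and 11 and 7 in the resistant libraries. Its strongest body summit ranked at 96.5 and 94.6 in LNCaP and at 64.8 and 41.8 in the resistant libraries, a difference of -42.3 points (pooled SD 11.6) against a median of -20.4 for all genes. The ABCC4 body held 39 sites, of which 19 were LNCaP-only, 4 shared and 1 resistant-only. The LNCaP-only sites had percentiles from 13.7 to 90.6, with a median of 57.2, in LNCaP replicate 1, and from 1.05 to 85.9, with a median of 47.9, in replicate 2. The strongest was chr13:95246285-95246799, at 90.6 and 85.9. All 4 shared sites ranked lower in both resistant libraries, as did 27 of the 40 shared body sites of the family, ABCC4 included. The share of such sites over all genes was not computed. The strongest shared site of ABCC4, chr13:95271129-95271809, ranked at 96.5, 94.6, 53.8 and 30.3. The resistant-only site, chr13:95189219-95189729, had 39.6 and 41.8.

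ABCC1 had 19, 16, 7 and 2 body summits. Its 20 body sites comprised 11 LNCaP-only, 2 shared and no resistant-only sites. The LNCaP-only site chr16:15998419-15998919 was among the strongest of those lists, at 97.4 in LNCaP replicate 1 and 97.3 in replicate 2, without a summit in the resistant libraries. The shared site chr16:16014739-16015339 ranked at 91.7 and 91.0 against 4.67 and 9.58. The other shared site, chr16:16021983-16022500, ranked at 96.6, 96.5, 97.9 and 90.1, so that the strongest body summit of ABCC1 overlapped between groups while most of its sites were found in LNCaP alone. ABCA13, the longest member, held 20 body sites, with 8 LNCaP-only, 1 shared and 1 resistant-only, the last at 79.0 and 75.6.

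These counts were set beside those of other long genes. Among 609 protein-coding genes with at least 20 body sites, the median share of LNCaP-only sites was 34.4%, with quartiles of 26.5% and 42.5%. The share was 48.7% for ABCC4, at or above that of 87.2% of those genes, 55.0% for ABCC1, at or above that of 95.2%, and 40.0% for ABCA13, at or above that of 69.0%. There were 61 genes, ABCC4 included, with 19 or more LNCaP-only body sites. The LNCaP lists are longer, and with the lists cut to equal numbers of summits 3 of 17 body sites of ABCC4 and 7 of 10 of ABCC1 were LNCaP-only. Over all protein-coding genes 23.1% of body sites were LNCaP-only under that cut. The larger share of ABCC4 was thus not seen with equal numbers, while that of ABCC1 was. The call of lower rank for the strongest ABCC4 body summit held there, with a difference of -45.6 points.

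**Figure D4:**
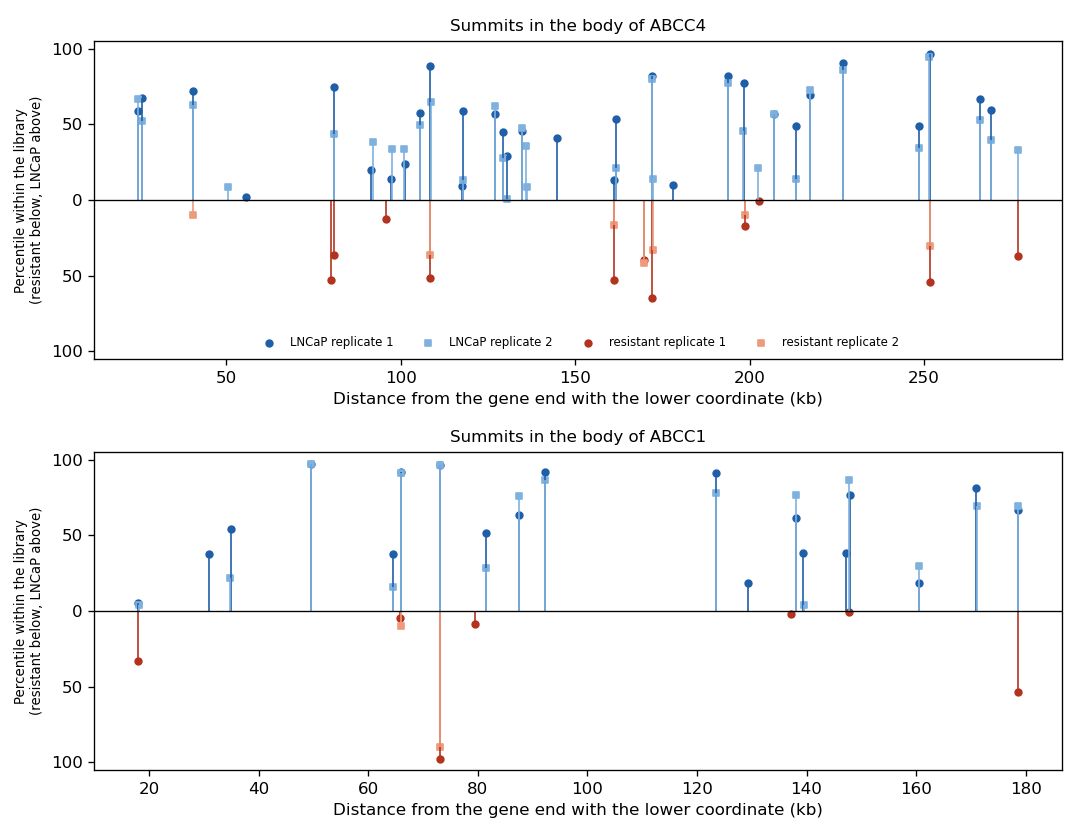
Summits in the bodies of ABCC4 (top) and ABCC1 (bottom), by distance in kb from the gene end with the lower coordinate (horizontal) and percentile within the library (vertical), with LNCaP libraries drawn upward and resistant libraries downward. ABCC4 has 31 and 32 LNCaP summits against 11 and 7, and ABCC1 has 19 and 16 against 7 and 2.

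Over the family, 71 sites lay near gene ends, of which 29 were shared, 14 LNCaP-only and 7 resistant-only. For all genes 13.3% of such sites were LNCaP-only and 5.1% resistant-only, against 19.7% and 9.86% for ABC genes. The 7 resistant-only sites included those near ABCB1, ABCB4, ABCA1, ABCC2, ABCC11 and ABCA7. Within 1 kb of an end, 2 of 47 sites were resistant-only against 5.16% over all genes, and with 5′ ends alone 2 of 43 against 5.17%, so the larger share of ABC genes was not seen there. With equal numbers of summits, 5 of 54 sites were LNCaP-only and 16 resistant-only, against 6.33% and 17.1%. Without resistant replicate 2 the count of resistant-only sites was 15, against 12.8%, and without LNCaP replicate 1 it was 11, against 8.13%. Gene bodies held 260 sites, with 40 shared, 81 LNCaP-only and 13 resistant-only. The shares were 31.2% LNCaP-only and 5.00% resistant-only for ABC genes, and 32.3% and 3.09% for all genes. ABCC4 accounted for 23.5% of the LNCaP-only body sites, and without it 62 of 221 sites were LNCaP-only. The resistant-only body sites were in 11 genes and numbered 30 without resistant replicate 2, where the share over all genes was 10.5%.

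Summits near ABC gene ends made up 0.0469% (95% Wilson interval 0.0360 to 0.0611) and 0.0466% (0.0353 to 0.0614) of the LNCaP lists and 0.0762% (0.0584 to 0.0994) and 0.0943% (0.0700 to 0.127) of the resistant lists, intervals that cover counting error only. The resistant mean was 1.82 times the LNCaP mean, and over all protein-coding genes the ratio was 1.59. Inside ABC gene bodies the shares were 0.177% (0.155 to 0.203), 0.158% (0.136 to 0.184), 0.141% (0.116 to 0.172) and 0.138% (0.108 to 0.177), a ratio of 0.831, against 0.805 for all genes. Both ratios were thus near those of protein-coding genes at large.

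The pathway list comprised ABC proteins under other symbols and regulators of ABC genes. CFTR, a chloride channel of the ABC fold, had an end summit only in LNCaP replicate 1, at 13.3. TAP1 and TAP2, which carry peptides to HLA class I, ranked lower at their ends, TAP1 at 98.6, 98.1, 97.2 and 93.2. The TAP1 values came from different sites. In both LNCaP libraries and resistant replicate 1 the summit lay 8008 to 8029 bases from its start, beyond its 3′ end. That of resistant replicate 2 lay 72 bases from the start. Of 12 regulators, 11 had an end summit, 2 ranked higher and 4 lower. These were 18.2% and 36.4%, near the 23.8% and 28.4% of all genes. AHR, the receptor of aryl hydrocarbons, ranked at 61.3 and 43.4 in LNCaP and at 85.7 and 78.7 in the resistant libraries, and NR1H2, a liver X receptor that controls ABCA1 and ABCG1, at 74.0, 72.1, 81.6 and 81.4. The NR1H2 values came from different sites. Its LNCaP summits lay 82 and 90 bases from its start, and the resistant summits 7847 and 7614 bases from it, beyond the 3′ end. NR1I2, the pregnane X receptor that controls ABCB1, ranked lower, at 63.1, 72.8, 42.5 and 0, through summits near its 3′ end. NFE2L2, the factor that binds antioxidant response elements, overlapped at its ends.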

How the data were processed

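ATAC-seq was done by the authors on 2 LNCaP and 2 resistant libraries, and for each library the authors deposited the summits of its peaks with a −log10 score, either of a p-value or of a q-value. The labels name build hg38, Bowtie2 2.2.5, SAMtools 1.6 and MACS2 2.2.6 without their settings. Up to 4.35% of a library's summits had the same score. Gene positions came from a RefSeq GRCh38.p14 gene table without a strand column, and strands and starts from the RefSeq promoter table for the 35 members with an entry. The members and lists were chosen with earlier results of these data known. Groups came from the labels. A few genes are counted but not reported by name here. Named were ABCC4 and the 8 other pumps, the 5 largest differences each way at ends and in bodies among groups that did not overlap, end summits of 1 group alone, genes with 3 or more sites of 1 group, and the 3 genes with the most body summits. Other members named were chosen after their values were seen. The code was tested on simulated lists with 200 planted genes among 20037, of which 100% were recovered at gene ends. The planted summits had fixed score ranks in each group without spread between replicates, and other summits near those ends were removed. Full recovery thus shows only that the code ran as written and gives no rate of false or missed calls in real lists. Tools were scipy 1.17.1, pandas 2.3.3, numpy 2.4.6, Python 3.11.15 and matplotlib 3.10.9.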

Additional observations from a re-analysis of the deposited data

How the results depend on the processing

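With equal numbers of summits per library, 22 of 32 members ranked higher at their ends and 4 lower, against 61.6% and 8.7% of all genes. In bodies 9 of 31 ranked higher and 12 lower, against 24.2% and 42.4%, the end sites comprised 5 LNCaP-only and 16 resistant-only, against 6.33% and 17.1%, the body sites 26 LNCaP-only, against 23.1%, and the difference in the body share was -0.0153 percentage points. The end differences were 15.5 for ABCC4 and 36.8 for ABCC3, both reversed in sign, 43.5 for ABCC1, -1.02 for ABCC5 and 16.4 for ABCC10. Body differences were 3.53 for ABCG2, reversed, 21.9 for ABCB1, 49.0 for ABCC2 and 11.6 for ABCC11. The differences at the starts of ABCB1 and ABCG2 were 85.5 and 71.4. No LNCaP summit at these starts was kept by the cut, so both LNCaP libraries counted as 0 there. The larger differences are therefore not a stronger result. With a score of at least 10, the counts were 5 higher and 6 lower of 32 at ends, against 24.6% and 19.8% of all genes, 6 LNCaP-only sites of 55 at ends, against 10.1%, 36 LNCaP-only and 5 resistant-only sites of 130 in bodies, against 31.8% and 3.39%, and 10 LNCaP-only sites in ABCC4. End differences were then 27.5 for ABCB1 and 18.8 for ABCC2, both with overlapping groups, -3.43 for ABCC5, 6.37 for ABCC10 and -7.34 for ABCC11, the start of ABCB1 differed by 69.6, and body differences were -68.4 for ABCC4, 11.2 for ABCB1, -44.1 for ABCC3, -27.4 for ABCC5, 2.06 for ABCC11 and -14.8 for ABCG2. With 1 kb in place of 3 kb, the end share differed by 0.0292 percentage points, the 47 end sites comprised 7 LNCaP-only and 2 resistant-only, against 8.52% and 5.16%, 3 of 39 bodies ranked higher, against 8.42%, and ABCC1 and ABCC2 differed by 17.4 and 22.3 at their ends, both with overlapping groups. With 5′ ends alone, the share differed by 0.0225, there were 3 LNCaP-only and 2 resistant-only sites of 43, against 10.2% and 5.17%, and ABCB1 differed by 36.7, ABCC2 by 22.3, with overlapping groups, and ABCC11 by 1.98, reversed. With whole genes, the share differed by -0.00892, 20 of 293 sites were resistant-only, against 3.49%, and ABCC11 differed by -4.73. With summits nearest to no other gene, ABCC3 differed by 8.35 at its ends, reversed, and ABCG2 by -25.3 in its body. The cause of these changes was not tested.

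Leaving out each library in turn gave between 13 and 16 higher and between 13 and 16 lower ends, while 28.7% to 44.7% and 31.9% to 48.8% of all genes were so called. There were 15 to 18 LNCaP-only and 8 to 15 resistant-only end sites, against 14.6% to 23.4% and 7.1% to 12.8%, 5 to 10 higher and 22 to 26 lower bodies, against 8.66% to 17.8% and 64.6% to 76.6%, and 83 to 135 LNCaP-only and 13 to 30 resistant-only body sites, against 33.4% to 54.4% and 4.15% to 10.5%. The end of ABCB1 differed by 46.4 to 70.4 points. The body count was 10 without resistant replicate 2, and the 135 sites were without LNCaP replicate 2. The labels give the repeat number as the batch, and requiring the same direction within each pair of equal numbers (replicate block) gave 13 higher and 14 lower at ends, against 30.0% and 34.9%, and 5 higher and 22 lower in bodies, against 9.21% and 67.8%, and left the sites and shares as they were. Depth is unknown, and with 2 libraries per group the exact two-sided permutation test cannot go below p = 0.333.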
